A study of Mus musculus with 61 samples.

Results

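Wild-type mouse embryos made by in vitro fertilisation were compared between 2 successive labelling windows, 24-30hpi and 18-24hpi (hours post insemination). Each window had 3 libraries, so the comparison used 6 of the 61 libraries of the series, taken by their labels, and all genes of the read count table: 24552 genes, of which 16234 had enough reads to be tested. In SLAM-seq, cells take up the uridine analogue 4SU (4-thiouridine), build it into new transcripts, and the RNA is alkylated with iodoacetamide before sequencing. Embryos of both windows came from eggs of superovulated females, were cultured in KSOM medium with 2 mM 4SU for 6 h, and were collected as 10 embryos per library, per the series design. Polyadenylated RNA was primed with oligo-dT by a modified Smart-seq2 protocol. No unlabelled control for either window was used here. MII oocytes (unfertilised eggs arrested in the second meiotic metaphase, also exposed to 4SU) and the other windows served as context. Whether unconverted reads were counted beside those carrying T-to-C conversions is not given in the sources used here, so a level may include RNA made before the labelling. The MII oocyte libraries held 11325715 to 11596668 counted reads. Levels and their changes are therefore not read here as newly made transcripts.

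A mouse egg is loaded with maternal messenger RNA and is nearly silent in transcription. After fertilisation these stores are degraded, a minor wave of transcription starts in the zygote, and a major wave follows in the 2-cell embryo, when the embryo begins to make the products it needs for growth. The eggs also lack active nucleoli, so that transcription of ribosomal RNA and assembly of ribosomes have to start again in the embryo.

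Total counts ran from 8661366 to 9075652 reads at 18-24hpi and from 7975529 to 9392324 reads at 24-30hpi. Libraries of a window correlated across genes at r = 0.972 to 0.976, and every pair differed by more than sampling noise (chi-square per degree of freedom 7.11 to 10.7). Mitochondrially encoded transcripts took 1.49% to 1.73% of reads at 18-24hpi and 1.93% to 2.09% at 24-30hpi. Levels below are CPM, counts relative to library totals scaled by TMM factors, listed in the order of the replicate numbers. How the replicates were obtained is not stated, so the p-values measure only the spread between libraries. That spread was estimated in a joint fit of 30 libraries of MII oocytes and the labelling windows, not from the compared windows alone. In libraries made from whole embryos, a change in the number of cells and a change in RNA per cell cannot be told apart.

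Between the windows 3412 genes rose and 3953 fell, 45.4% of those tested. A gene was called at an adjusted p below 0.05 (edgeR quasi-likelihood F-test, Benjamini-Hochberg over all 16234 genes). The background against which every count below is read is therefore 21.0% of genes called higher and 24.4% called lower, with a median log2 fold change of -0.12 over all genes. At least 2-fold changes made up 2517 of the rises (15.5% of genes tested) and 2386 of the falls (14.7%), at least 8-fold changes 290 and 175. In 94.3% of the rises and 94.8% of the falls the 3 libraries of one window lay wholly apart from the 3 of the other, against 24.7% (higher) and 29.9% (lower) of all genes tested. Genes called higher took 8.06% to 9.63% of all reads in the 18-24hpi libraries and 23.2% to 25.8% in the 24-30hpi libraries. Those called lower took 57.2% to 59.6% and then 37.5% to 40.04%.

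The balance of rises and falls depended on how libraries were scaled and on single libraries. TMM factors were 0.905 to 0.977 at 18-24hpi and 1.22 to 1.29 at 24-30hpi, and scaling by total counts alone moved log2 fold changes upward by 0.41 (median over genes). Rises then made up 69.0% of calls (4900 rises, 2205 falls) in place of 46.3%, while all 3412 rises were still called and 2205 of the 3953 falls. DESeq2 size factors gave 47.4% and a fit of only the 6 libraries 52.3%. Leaving out 24-30hpi replicate 1 gave 2458 falls, and leaving out 18-24hpi replicate 1, 2 or 3 gave 2628, 2689 or 2560. Rises outnumbered falls in these fits, at 60.7%, 58.5%, 58.4% and 57.8% of calls in the same order. They made up 47.2% and 46.3% without 24-30hpi replicate 2 or 3. Log2 fold changes as a whole moved too, by a median over genes of 0.234 without 24-30hpi replicate 1. The shift was 0.197, 0.203 or 0.185 without 18-24hpi replicate 1, 2 or 3, and 0.0061 or -0.0027 without 24-30hpi replicate 2 or 3. No gene called in one direction was called in the other under any of these settings.

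The largest rises were read among called genes whose windows did not overlap and whose later mean reached 20 CPM or more. The 6 given first here were at 2.14 CPM or less in MII oocytes. Cxadr, a cell adhesion receptor of tight junctions, measured 3.43, 6.92 and 6 CPM at 18-24hpi and 45.9, 65.6 and 75.4 CPM at 24-30hpi (a log2 rise of 3.51, SE 0.21, adjusted p = 2.76e-15), with 1.99 CPM in MII oocytes. Psme2, a subunit of a proteasome activator, measured 2.96, 2.07 and 1.88 and then 20.1, 28.3 and 23.6 CPM (log2 fold change 3.37, SE 0.32, adjusted p = 1.17e-10). Every 24-30hpi library was above every 18-24hpi library for both genes, as the choice of genes without overlap required. Edf1, a transcriptional coactivator, rose 11-fold, Unc119b, a lipid-binding transport protein, 9.83-fold, Hsd17b14, a steroid dehydrogenase, 9.74-fold and Cst7, a cystatin, 9.33-fold. Among the largest absolute gains were Ppm1a, a protein phosphatase, at 258, 275 and 209 and then 598, 613 and 725 CPM, and Prps1, which makes the ribose donor for nucleotides, at 509, 510.2 and 431 and then 906, 1065 and 1018 CPM. Gcsh, a subunit of the glycine cleavage system, rose from 270.5, 312 and 251 to 601, 677 and 655 CPM.

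Genes that were below 1 CPM in MII oocytes and in all 4 earlier windows and reached 10 CPM at 24-30hpi numbered 3. Prnp, the prion protein gene, measured 0.71, 1.27 and 0.625 and then 21.3, 14.9 and 7.2 CPM. Sowaha measured 0.355, 1.04 and 1.5 and then 3.02, 11.5 and 21 CPM, and Slc4a11, a membrane transporter, 0.947, 1.61 and 0.25 and then 15.7, 6.69 and 12.2 CPM. All 3 separated fully, though the 24-30hpi libraries of Sowaha spread widely. Slc4a11 went on to 659 ± 46.4 CPM (SD, n = 3) at 48-54hpi, whereas Prnp and Sowaha were at 1.26 ± 1.28 and 1.34 ± 0.48 CPM there.

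The largest falls included metabolic, signalling and repair genes. Dph6, an enzyme of diphthamide synthesis, measured 437, 470.0 and 566 CPM and then 47, 72.4 and 51.3 CPM (log2 fold change -3.11, SE 0.16, adjusted p = 4.2e-16), with 711 CPM in MII oocytes. Nsdhl, an enzyme of cholesterol synthesis, measured 43.1, 52.4 and 69.8 and then 5.68, 6.39 and 5.93 CPM (log2 fold change -3.20, SE 0.26, adjusted p = 5.65e-12). The windows did not overlap for either gene, as the same choice required. Casp8, an initiator caspase, fell 8.31-fold, Pms1, a DNA mismatch repair protein, 8.63-fold, and Cxcr3, a chemokine receptor, 9.64-fold. Among the largest absolute losses, Tbc1d15, a GTPase activator, went from 2860.0, 2931 and 3199 to 534, 699.7 and 687 CPM. Rbbp7, a histone-binding subunit of chromatin complexes, went from 1951, 1949 and 2628 to 451, 595 and 511 CPM, and Ube2d3, a ubiquitin-conjugating enzyme, from 4872, 5091 and 5445 to 2517, 2832 and 2586 CPM.

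Genes of the nucleolus, where ribosomal RNA is made and ribosomes are assembled, rose more often than they fell. Of 16 tested members of the RNA polymerase I machinery, which transcribes ribosomal RNA genes, 12 rose and 0 fell (75.0% and 0%, median log2 fold change 1.50). Small subunit processome proteins, which cut and fold the precursor of the small ribosomal subunit, gave 33 rises and 3 falls among 42 (78.6% and 7.14%, median 1.05). Large subunit assembly factors gave 42 rises and 3 falls among 52 (80.8% and 5.77%, median 1.20), and proteins of the small nucleolar RNPs, which guide modification of ribosomal RNA, 6 rises and 0 falls among 12 (median 0.76; 12 of 12 rose under total count scaling). The summed level of the large subunit assembly factors overlapped between the windows (5832 to 6382 and then 6228 to 6864 CPM). The sums of the other nucleolar lists were higher at 24-30hpi without overlap.

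Polr1e, a subunit of polymerase I, measured 37.7, 40.2 and 25.9 CPM at 18-24hpi and 119, 146 and 176 CPM at 24-30hpi (a log2 rise of 2.08, SE 0.22, adjusted p = 2.29e-09). Polr1a, which encodes its largest subunit, measured 11.8, 6.45 and 6.76 and then 38.8, 42.7 and 30.2 CPM (log2 fold change 2.15, SE 0.22, adjusted p = 6.19e-10). Both rose without overlap between the windows. Ubtf, the factor that opens ribosomal RNA gene promoters, rose 3.7-fold and Znrd1, a small subunit, 4.17-fold. Rrp9, a U3 RNP protein of the processome, measured 12.2, 14.4 and 12.1 and then 74.5, 75.5 and 75.2 CPM (log2 fold change 2.54, SE 0.21, adjusted p = 6.23e-12). Its 3 libraries at 24-30hpi nearly coincided and lay above all 3 of the earlier window. Among the box C/D and H/ACA RNP proteins, Nop56 measured 66.4, 81.4 and 74.8 and then 198, 220.1 and 245 CPM, and Nhp2 56.7, 56.2 and 48 and then 189, 188 and 198 CPM. Nop56 and Nhp2 had different histories: Nop56 stood at 325 ± 29.9 CPM (SD, n = 3) in MII oocytes and had declined to 74.2 ± 7.52 CPM by 18-24hpi before it rose, whereas Nhp2 was at 2.92 CPM in the egg.

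Of the 6 nucleolar genes that fell, all but Riok1 were singled out after their values were seen. Riok1, a kinase of late small subunit maturation, measured 686, 679 and 824 and then 166, 219.7 and 165 CPM (log2 fold change -1.99, SE 0.13, adjusted p = 2.18e-14). Npm1, the abundant nucleolar histone chaperone, measured 1853, 1950.5 and 2109 and then 963, 1149 and 1072 CPM (log2 fold change -0.89, SE 0.10, adjusted p = 3.47e-09), and Rsl1d1 fell 1.83-fold. No library of one window overlapped the other for these genes. Nol10 fell 2.02-fold. Mphosph10 and Tex10 were called with small falls (log2 fold changes -0.36 and -0.40) that total count scaling turned slightly positive and that were lost without 24-30hpi replicate 1 or 3 or any 18-24hpi replicate. All 6 had over 100 CPM in MII oocytes.

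Promoter sequences were compared for these groups because so many nucleolar genes rose together. The RefSeq promoter table (GRCm38.p6, 250 bases before to 50 after the start) held a window for 80 of the 93 nucleolar genes called higher. Of these windows 35 (43.8%) held CCGGAAG on either strand, the core bound by ETS factors such as GABPA, and 16 (20.0%) held the E-box CACGTG, against 9.12% and 7.24% of all 27025 promoters in the table. The same ETS core was not limited to risen genes: 12 of 29 windows of mitochondrial ribosomal protein genes called higher held it and 7 of 22 of those called lower, and 4 of 17 of splicing factor genes called higher against 7 of 13 of those called lower. In the 14 windows of fallen genes of the subcortical maternal complex and lattice list (described below) it was at 0. The E-box was in 3 of 14 windows of risen lysosomal protein genes and in 1 of 29 of risen mitochondrial ribosomal protein genes. Sites for NRF1, YY1, OBOX and NR5A2 and the GC, CCAAT and TATA boxes were also searched. The GC box was in 49 (61.25%) of the nucleolar windows, against 35.9% of all promoters. Median GC content was 57.2% in the nucleolar windows and 52.7% in all promoters. The median number of CpG dinucleotides, which the ETS core and the E-box contain, was 20 and 7. No base-composition match was made, and the part of CpG content in these shares was not tested. Windows were matched for under 80% of all risen or fallen genes and for 73.2% of the risen cytosolic ribosomal protein genes, so a comparison over those classes is void.

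The 100 bases before the start of 8 genes follow, 5′ to 3′ on the strand of the gene, with the ETS core in capitals on whichever strand it lies. The first 5 are nucleolar genes that rose. Gabpa, which encodes an ETS factor, was called higher, and Snrpb2 (splicing) and Mrpl3 (mitochondrial ribosome) were called lower. All 8 hold the core, so they do not show how often it occurs. Its part in these changes was not tested. Nop2 lies at chr6:125131783-125131882 (plus strand), Polr1c at chr17:46248046-46248145 (minus), Nhp2 at chr11:51619673-51619772 (plus), Nolc1 at chr19:46075747-46075846 (plus) and Ddx55 at chr5:124552764-124552863 (plus). Gabpa lies at chr16:84835024-84835123 (plus), Snrpb2 at chr2:143062969-143063068 (plus) and Mrpl3 at chr9:105053168-105053267 (plus), all upstream of the annotated first exon start.
Nop2: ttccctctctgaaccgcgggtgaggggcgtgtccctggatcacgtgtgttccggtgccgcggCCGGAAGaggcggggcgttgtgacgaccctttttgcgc
Polr1c: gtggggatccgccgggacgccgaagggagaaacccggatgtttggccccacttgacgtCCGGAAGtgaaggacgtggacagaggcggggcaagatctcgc
Nhp2: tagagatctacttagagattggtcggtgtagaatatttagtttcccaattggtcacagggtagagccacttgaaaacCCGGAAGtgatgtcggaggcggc
Nolc1: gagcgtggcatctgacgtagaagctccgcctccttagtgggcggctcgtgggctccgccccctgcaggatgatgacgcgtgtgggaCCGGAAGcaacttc
Ddx55: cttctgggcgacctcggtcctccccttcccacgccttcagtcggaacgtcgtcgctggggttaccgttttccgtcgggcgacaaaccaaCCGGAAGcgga
Gabpa: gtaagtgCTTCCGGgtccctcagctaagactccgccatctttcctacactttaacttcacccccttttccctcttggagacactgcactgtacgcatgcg
Snrpb2: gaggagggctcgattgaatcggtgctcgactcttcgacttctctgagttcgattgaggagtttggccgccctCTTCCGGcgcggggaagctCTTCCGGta
Mrpl3: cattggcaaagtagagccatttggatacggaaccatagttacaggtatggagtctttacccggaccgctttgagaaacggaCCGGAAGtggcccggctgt

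Values for these genes stand beside the letters. Ddx55, an RNA helicase of large subunit assembly, measured 3.9, 5.07 and 3.5 and then 21.7, 18.4 and 20.9 CPM, and Nolc1, a nucleolar phosphoprotein, 65, 106 and 77.7 and then 266, 199 and 256 CPM. Polr1c measured 62.7, 63.6 and 48.8 and then 174, 185 and 199 CPM. Snrpb2 measured 372, 401 and 456 and then 107, 114 and 105 CPM (log2 fold change -1.92, SE 0.11, adjusted p = 1.56e-15), and Mrpl3 247, 255 and 268 and then 58.5, 65.8 and 64.9 CPM (log2 fold change -2.02, SE 0.14, adjusted p = 6.11e-14). The 3 risen and the 2 fallen genes each separated fully between the windows, in opposite directions. A match of letters is a description of the window, not a bound site.

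**Figure D1:**
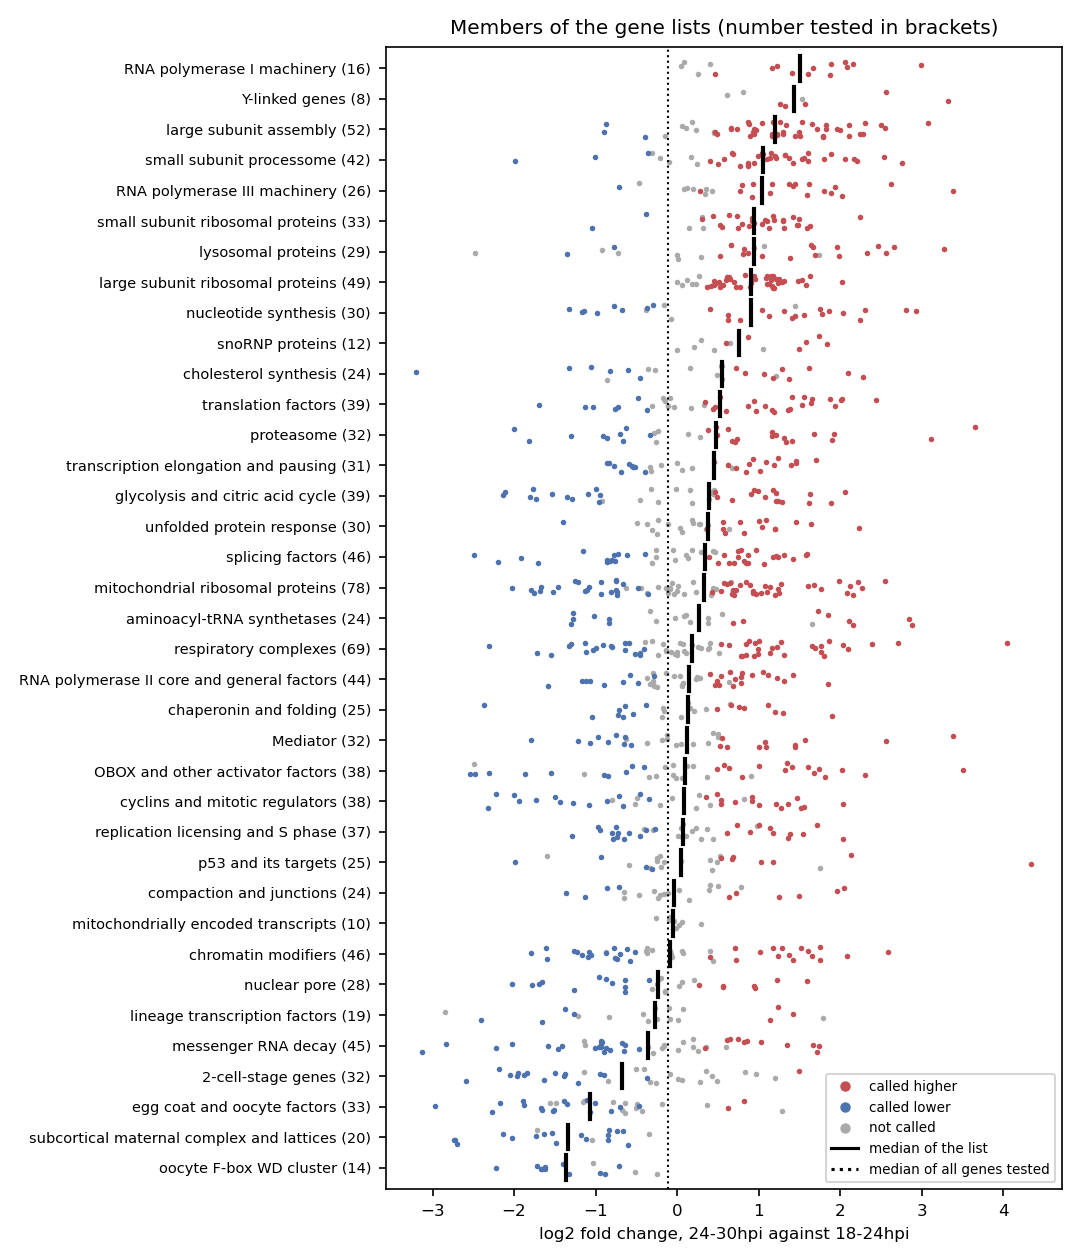
Each point is 1 tested member of a gene list, placed by its log2 fold change at 24-30hpi against 18-24hpi (x axis) and coloured by its call, with a bar at the median of the list and a dotted line at the median of all genes tested (-0.12). Lists of RNA polymerase I, ribosome assembly and ribosomal proteins lie almost wholly to the right, oocyte lists to the left, and most multi-subunit complexes have members on both sides.

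Most ribosomal protein genes rose. Of 49 large subunit proteins 43 rose and 0 fell (median log2 fold change 0.91), and of 33 small subunit proteins 28 rose and 2 fell (median 0.94), that is 87.8% and 84.8% called higher against the 21.0% of all genes. Rps27 measured 15.1, 18.6 and 10.8 and then 69.3, 67.9 and 73.5 CPM (log2 fold change 2.24, SE 0.21, adjusted p = 1.98e-10), and Rpl36 5.09, 4.26 and 7.26 and then 22.8, 20.4 and 24.2 CPM (log2 fold change 2.03, SE 0.20, adjusted p = 2.42e-10). Neither gene overlapped between the windows. Rps15a went the other way, at 401, 408 and 388 and then 197, 196 and 187 CPM (log2 fold change -1.04, SE 0.10, adjusted p = 3.48e-10). Rps27l, a paralog that is also a p53 target, was called with a log2 fold change of -0.38, a call lost under total count scaling (0.0219) and without 24-30hpi replicate 1 or any 18-24hpi replicate. Reads of ribosomal protein genes may be shared with processed pseudogenes, and how such reads were counted is not stated.

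Translation factors rose more often than they fell (23 rises, 7 falls, 39 tested, median 0.52), and the rises included subunits of eIF3, the scaffold that brings the small subunit to messenger RNA. The summed level of the list ran from 8659 to 9304 and then from 8078 to 8818 CPM, with overlap. Eif3c measured 37.6, 44.8 and 28.9 and then 141, 156 and 155 CPM (log2 fold change 2.02, SE 0.15, adjusted p = 6.01e-13), Eif3g rose 5.41-fold and Eif3m 3.82-fold. Of the 13 eIF3 subunits tested 11 rose, Eif3i fell (log2 fold change -1.13, adjusted p = 2.75e-07) and Eif3k was not called (0.17). Eif4a1, the helicase of the cap-binding complex, fell from 272, 251 and 275 to 72.8, 91 and 82.4 CPM (log2 fold change -1.70, SE 0.12, adjusted p = 1.77e-13). All 3 libraries of a window were on the same side for both Eif3c and Eif4a1. Aminoacyl-tRNA synthetases gave 8 rises and 6 falls among 24 (14 rises under total count scaling). Rars, for arginine, measured 26.1, 39.6 and 26.1 and then 142, 128 and 141 CPM, and Aars, for alanine, 14, 10.9 and 11.6 and then 58.6, 49.2 and 49.3 CPM.

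**Figure D2:**
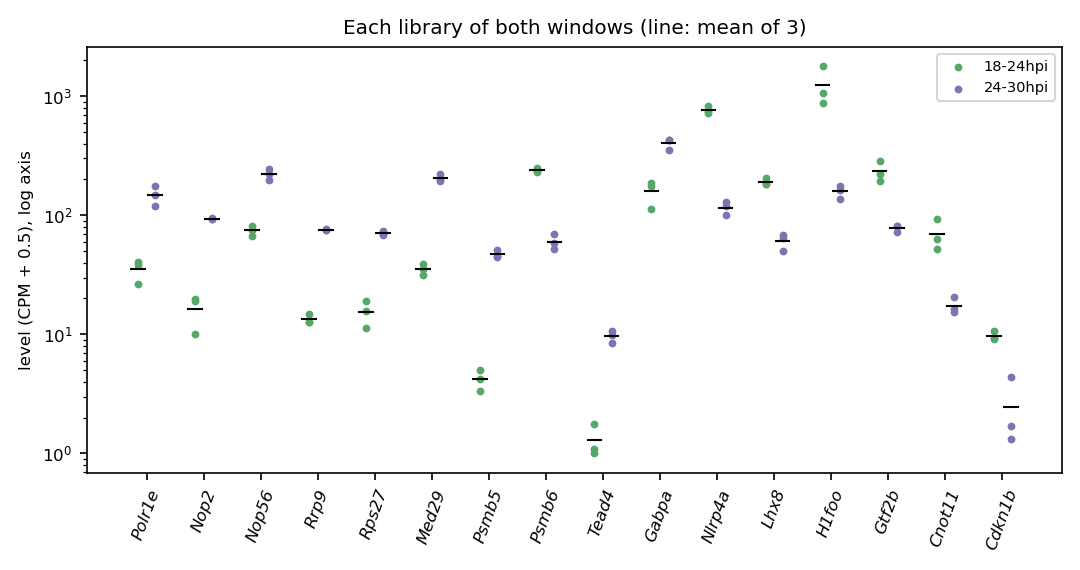
Level of 16 genes in each library (points; y axis CPM + 0.5 on a log axis) at 18-24hpi and 24-30hpi, with a line at the mean of 3 libraries. For every gene drawn the 3 points of one window lie wholly above the 3 of the other, as for Psmb5 (2.84 to 4.5 CPM, then 44.5 to 50.3 CPM) and Psmb6 (232 to 251 CPM, then 51.3 to 69.1 CPM), which move in opposite directions.

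RNA polymerase III machinery, which transcribes transfer RNA and other small RNA genes, gave 18 rises and 1 fall among 26 (69.2% and 3.85%, median 1.04). Polr3b, its second largest subunit, measured 14.4, 15.6 and 9.76 and then 50.6, 45.4 and 65.1 CPM (log2 fold change 2.02, SE 0.23, adjusted p = 4.96e-09), and Snapc4, a subunit of the activator of small nuclear RNA genes, 1.3, 1.61 and 2.5 and then 22.6, 17.9 and 15.9 CPM. Both separated fully, and the single fall, Polr3f (1.64-fold), was lost under total count scaling and in 3 of the 6 fits without 1 library. RNA polymerase II and its general factors gave 18 rises and 9 falls among 44 (median 0.15). Polr2h rose from 38.2, 47 and 46.4 to 107, 115 and 129 CPM, while Gtf2b, which sets the start site, fell from 195, 221 and 286 to 72.2, 80.2 and 81 CPM (log2 fold change -1.59, SE 0.13, adjusted p = 8.55e-12) and Polr2c from 1199, 1191 and 1433 to 559.9, 642 and 625 CPM. Polr2a, the catalytic subunit, measured 12.3, 9.8 and 13.5 and then 21.1, 14.6 and 25.3 CPM (log2 fold change 0.78, SE 0.25, adjusted p = 0.0105). Its adjusted p was 0.085 when 24-30hpi replicate 3 was left out.

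Mediator, which links activators to polymerase II, gave 11 rises and 9 falls among 32 (17 and 6 under total count scaling). Med29 measured 35.1, 38.3 and 31.1 and then 194, 203 and 221 CPM (log2 fold change 2.56, SE 0.23, adjusted p = 2.81e-11). Med30 measured 589, 663 and 742 and then 181, 227 and 168 CPM (log2 fold change -1.79, SE 0.12, adjusted p = 8.01e-14). Both subunits separated completely, and Med29 was at 0.548 CPM in MII oocytes and Med30 at 687 CPM. Elongation and pausing factors gave 14 rises and 9 falls among 31. Aff4, a scaffold of the super elongation complex, rose 2.64-fold and Supt4a, a subunit of the DSIF complex, 2.03-fold, while Tcea1 (TFIIS) fell 1.71-fold and Supt16, of the FACT histone chaperone, 1.79-fold. The count of 9 falls dropped to 2 under total count scaling and to 2, 3, 4 and 4 without 24-30hpi replicate 1 and without 18-24hpi replicates 1, 2 and 3, respectively.

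Transcription factors linked to genome activation gave 15 rises and 10 falls among 38 (39.5% and 26.3%; the falls were 5 under total count scaling and 5, 5 and 6 without 24-30hpi replicate 1, 18-24hpi replicate 1 and 18-24hpi replicate 3), and the oocyte-specific homeobox (Obox) family moved in both directions. Obox6 measured 97.8, 109 and 90.9 and then 303, 309.6 and 343 CPM (log2 fold change 1.68, SE 0.29, adjusted p = 5.96e-05) and Obox8 16.4, 15.7 and 14.6 and then 69.6, 81.1 and 80.2 CPM (log2 fold change 2.30, SE 0.51, adjusted p = 0.000764). Obox1 measured 746, 774 and 905 and then 134, 196 and 159 CPM (log2 fold change -2.31, SE 0.42, adjusted p = 0.000105), and Obox7 213, 239.8 and 267 and then 40.6, 51.7 and 32 CPM (log2 fold change -2.54, SE 0.25, adjusted p = 3.46e-09). None of these 4 overlapped between the windows, and the risen pair was below 1 CPM in MII oocytes while Obox1 and Obox7 were at 1163 and 369 CPM. Obox2 (3.66-fold) and Obox5 (2.91-fold) also fell, the latter not called in 7 of the alternatives, DESeq2 among them. Obox3, a member known for activation of the embryonic genome, measured 30.3, 35.2 and 26.6 and then 55.8, 56.7 and 60.4 CPM (log2 fold change 0.91, SE 0.39, adjusted p = 0.0528), so it separated fully but was not called, although 10 of the 14 alternative fits called it. Obox copies are near-identical in part, and reads may be split between them.

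Gabpa, Tead4 and Nfyb were among the other factors that rose. Gabpa measured 176, 187 and 113 and then 356, 425 and 431 CPM (log2 fold change 1.35, SE 0.31, adjusted p = 0.00115), with 1.86 ± 1.86 CPM (SD, n = 3) in MII oocytes. Tead4, needed later for trophectoderm, measured 0.592, 1.27 and 0.5 and then 10.2, 7.93 and 9.41 CPM (log2 fold change 3.51, SE 0.35, adjusted p = 8.19e-10). Nfyb, a subunit of the CCAAT-binding factor NFY, measured 22, 40.3 and 20.1 and then 103, 105 and 129 CPM (log2 fold change 2.03, SE 0.20, adjusted p = 4.07e-10). All 3 separated fully between the windows. Nfya rose 1.56-fold, whereas the third NFY subunit, Nfyc, was called lower (1.46-fold), a call lost under total count scaling and without 18-24hpi replicate 1 or 2. Klf5 rose 3.35-fold, Klf4 1.73-fold and the orphan receptor Nr5a2 1.5-fold. Klf17 measured 422, 321 and 343 and then 365, 272 and 341 CPM and was not called (log2 fold change -0.15, SE 0.26, adjusted p = 0.67). Dppa2, the partner of Dppa4, measured 218, 209.5 and 209 and then 182, 229 and 205 CPM, with overlap (log2 fold change -0.05, SE 0.12, adjusted p = 0.776; 0.36 and called under total count scaling).

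**Figure D3:**
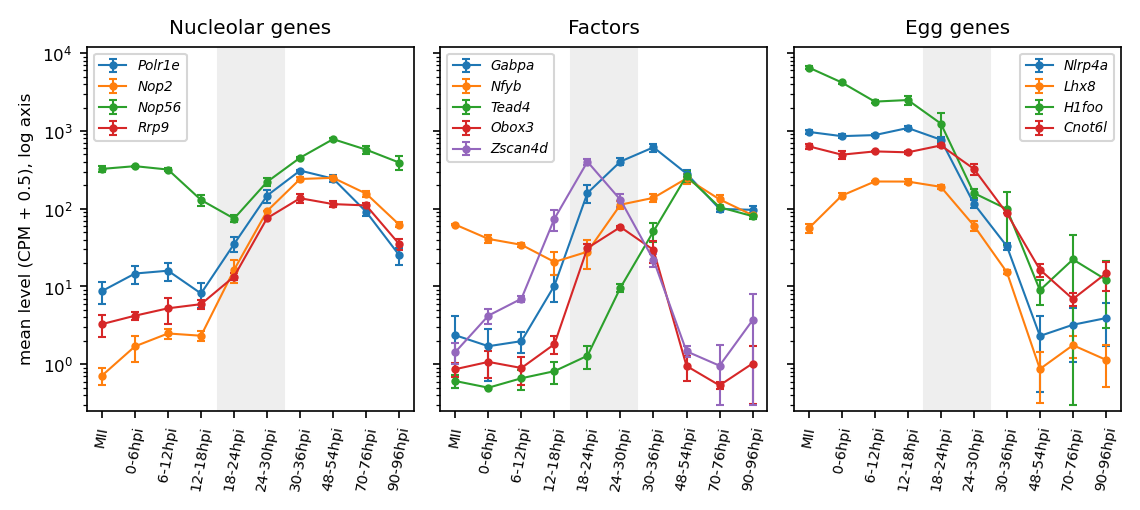
Mean level (y axis, CPM + 0.5, log axis) of 13 genes in MII oocytes and 9 labelling windows, with bars for the SD of 3 libraries (lower ends clipped so that they stay on the axis) and the compared windows shaded. Nop2, Polr1e and Rrp9 climb through the shaded windows, Zscan4d and Obox3 peak inside them, and Nlrp4a, Lhx8 and H1foo drop through them.

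Genes of the early 2-cell wave fell more often than they rose. Of 32 tested members of the 2-cell-stage list, 1 rose and 15 fell (3.12% and 46.9%, median log2 fold change -0.68). Zscan4d, a telomere-associated zinc finger gene, measured 436, 408 and 362 and then 109, 123 and 156 CPM (log2 fold change -1.63, SE 0.45, adjusted p = 0.00533), and the predicted gene Gm5039 253, 235 and 181 and then 34.1, 36.4 and 40.9 CPM (log2 fold change -2.59, SE 0.34, adjusted p = 1.25e-07). Both separated fully between the windows, but Zscan4d was not called by DESeq2 (adjusted p = 0.084) or without 24-30hpi replicate 1 (adjusted p = 0.0653). Duxf3, the Dux transcription factor that activates many of these genes, measured 2.96, 1.5 and 1.25 and then 0.275, 0.103 and 0.593 CPM after 12.2 ± 2.74 CPM at 12-18hpi. Its fall was called (adjusted p = 0.008) and lost without 24-30hpi replicate 1 or 18-24hpi replicate 1. Zfp352 measured 832, 919 and 783 and then 439, 474 and 494 CPM and was not called (log2 fold change -0.85, SE 0.45, adjusted p = 0.137) despite no overlap, though it was called lower without the filter on low counts and in the fit of only the 6 libraries. The only rise, Tdpoz2 at 2.84, 4.61 and 0.751 and then 5.95, 8.14 and 9.15 CPM, was lost without 24-30hpi replicate 3 or 18-24hpi replicate 3. The count of rises was 4 without 18-24hpi replicate 1, 3 without 18-24hpi replicate 2, 2 without 24-30hpi replicate 1 and 6 in the fit of only the 6 libraries. The count of falls was 7 by DESeq2, 8 under total count scaling (with 8 rises), and 7, 6 and 8 without 24-30hpi replicate 1, 18-24hpi replicate 1 and 18-24hpi replicate 2. These are multicopy families, so single-copy values are uncertain.

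Lineage factors of the later embryo gave 3 rises and 4 falls among 19 (5 rises under total count scaling, which turned the median of -0.28 to 0.06). Gata4 measured 20.7, 17.1 and 18.9 and then 54.5, 51.8 and 45.9 CPM, Tbx3 rose 2.2-fold and Zfp42 (Rex1) 2.35-fold. Pou5f1, the OCT4 gene, measured 26.6, 20.6 and 21 and then 8.24, 9.99 and 8.22 CPM (log2 fold change -1.37, SE 0.23, adjusted p = 5.78e-06), and Gata3 23.8, 40.9 and 45.9 and then 12.9, 11.4 and 10.7 CPM. Prdm1 fell 5.32-fold, and Gata6, whose windows overlapped, 2.4-fold. Gata6 was not called when 18-24hpi replicate 3 was left out (adjusted p = 0.122) or when libraries were scaled by their totals (adjusted p = 0.0631). The pluripotency and trophectoderm genes Nanog, Sox2 and Cdx2 stayed low: Sox2 measured 2.01, 4.84 and 3.88 and then 2.01, 3.09 and 4.92 CPM, and Nanog and Cdx2 did not exceed 1.38 CPM in any of the 6 libraries.

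Genes of the egg fell as groups. The list of the subcortical maternal complex and cytoplasmic lattices, structures that store and organise egg proteins, also held Npm2, Dppa3, Dnmt1 and Uhrf1. Of its 20 tested members 0 rose and 17 fell (85.0%, median log2 fold change -1.33). Npm2, Dppa3, Dnmt1 and Uhrf1 were among the falls, though Dnmt1 was not called under total count scaling. Nlrp4a measured 727, 758 and 829 and then 99.1, 129 and 119 CPM (log2 fold change -2.74, SE 0.34, adjusted p = 8.52e-07). Nlrp5 (MATER), whose loss in mothers arrests embryos at the 2-cell stage, measured 187, 233 and 273 and then 96.4, 106 and 102 CPM (log2 fold change -1.18, SE 0.24, adjusted p = 0.000271). Npm2, the oocyte nucleoplasmin, measured 229.6, 213 and 279.6 and then 73.1, 109.7 and 75.4 CPM (log2 fold change -1.48, SE 0.28, adjusted p = 0.000133). The later window lay wholly below the earlier one for all 3. Nlrp4 and Nlrp9 copies are similar in sequence, so their reads may be shared.

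Egg coat and oocyte factors gave 2 rises and 17 falls among 33 (median -1.07; 26 falls without the filter on low counts). H1foo, the oocyte linker histone, measured 1066, 884 and 1780.5 and then 136, 176 and 164 CPM (log2 fold change -2.97, SE 0.65, adjusted p = 0.00075), from 6533 CPM in MII oocytes. Lhx8, an oocyte homeobox factor, measured 184, 183 and 204 and then 67.2, 63.4 and 50 CPM (log2 fold change -1.66, SE 0.22, adjusted p = 1.19e-07), and Dazl, a germ cell RNA-binding protein, 1355, 1400.1 and 1544 and then 293, 384 and 278 CPM (log2 fold change -2.17, SE 0.25, adjusted p = 1.06e-07). None of the 3 overlapped. Gdf9, a growth factor secreted by oocytes, measured 627, 518 and 699 and then 405, 370.4 and 379 CPM without a call (adjusted p = 0.157), though it was called without the filter on low counts and in the fit of only the 6 libraries. Zp3, of the egg coat, measured 45.7, 40.5 and 60.7 and then 61.9, 68.2 and 58.9 CPM (log2 fold change 0.36, adjusted p = 0.0528, with overlap), and 9 of the 14 alternative fits called it higher, DESeq2 among them (adjusted p = 0.0208). The 2 rises were Taf4b, a TFIID subunit (1.77-fold), and Cd9, a sperm-egg fusion protein (1.54-fold). An F-box and WD repeat gene cluster expressed in oocytes gave 0 rises and 11 falls among 14 (median -1.36), a count of 6 under total count scaling and of 6, 6 and 5 without 24-30hpi replicate 1, 18-24hpi replicate 2 and 18-24hpi replicate 3.

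The machinery that degrades messenger RNA fell more often than it rose, with 11 rises and 20 falls among 45 (24.4% and 44.4%, median -0.35, or 0.06 under total count scaling). Several CCR4-NOT deadenylase subunits were among the falls. Cnot11 measured 63.2, 51.5 and 91.8 and then 15, 15.8 and 20 CPM (log2 fold change -2.02, SE 0.22, adjusted p = 1.49e-09). Cnot6l, the catalytic subunit known for maternal RNA clearance, measured 662, 617 and 673 and then 319, 381 and 275 CPM (2-fold lower, adjusted p = 4e-06). Both subunits fell without overlap. Btg4, the adaptor that brings CCR4-NOT to maternal RNA, measured 3358, 3441 and 3642 and then 1497, 1818 and 1417 CPM; it was not called (adjusted p = 0.17), although its windows did not overlap and the fit of only the 6 libraries called it (adjusted p = 7.7e-08). Dis3l2, an exonuclease of uridylated RNA, fell 8.78-fold and Xrn2, a nuclear exonuclease, 2.66-fold.

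Many large complexes had members on both sides, and the risen members had the lower levels in the egg. In the proteasome 18 of 32 tested genes rose and 9 fell (4 under total count scaling): the catalytic subunit Psmb5 measured 2.84, 4.5 and 3.75 and then 44.8, 44.5 and 50.3 CPM (log2 fold change 3.65, SE 0.24, adjusted p = 3.37e-14), while the catalytic subunit Psmb6 measured 233, 232 and 251 and then 58.3, 51.3 and 69.1 CPM (log2 fold change -2.00, SE 0.14, adjusted p = 9.71e-14). Their libraries moved in opposite directions without overlap. In MII oocytes the risen proteasome genes had a median of 16.0 CPM per kb of gene length and the fallen ones 151.7 CPM per kb. The same order held for the risen and the fallen members of Mediator (10.5 and 83.2 CPM per kb), splicing factors (18.5 and 87.1), nucleotide synthesis (2.43 and 221), respiratory complexes (3.07 and 23.1), mitochondrial ribosomal proteins (4.96 and 26.6) and chromatin modifiers (1.51 and 34.7), and the medians lay nearest in chaperonins (45.1 and 60.6). Over all genes tested the medians were 1.22 CPM per kb for the risen and 16.9 CPM per kb for the fallen, so the complexes share an order seen across the table.

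**Figure D4:**
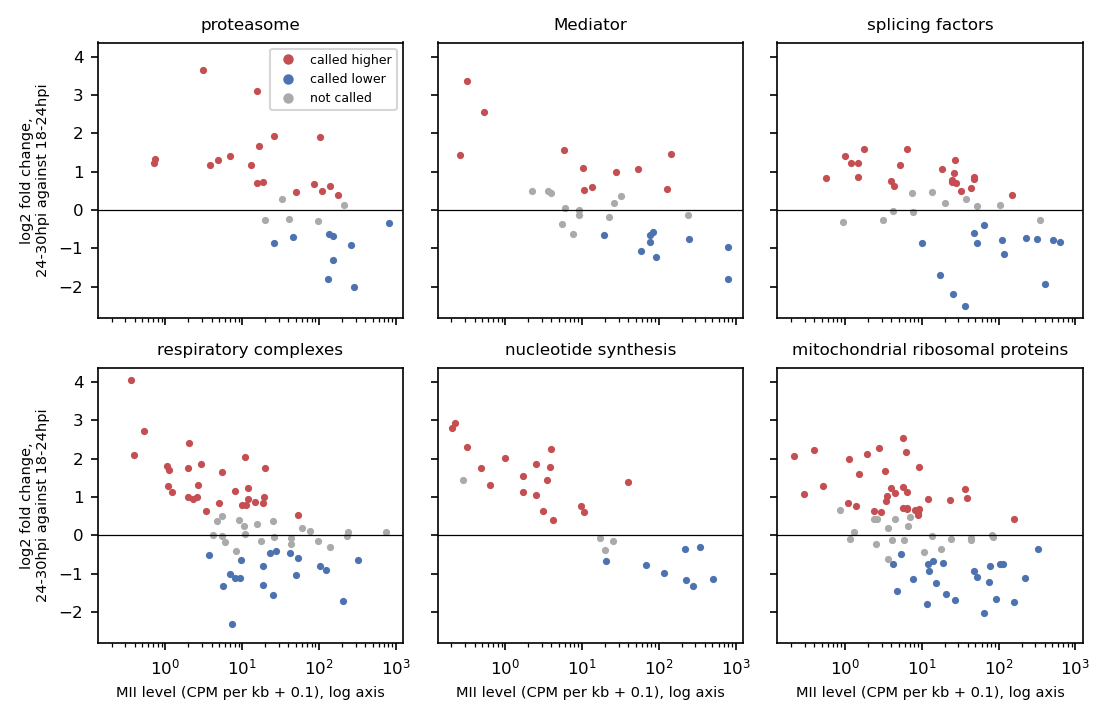
Members of 6 complexes or pathways by mean level in 3 MII oocyte libraries (x axis, CPM per kb + 0.1, log axis) and log2 fold change at 24-30hpi against 18-24hpi (y axis). Genes called higher sit towards low egg levels and genes called lower towards high ones, as the medians of 16.0 and 151.7 CPM per kb for the proteasome show, with an overlap of the clouds in each panel.

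Splicing factors gave 21 rises and 14 falls among 46, and the core Sm proteins were on both sides: Snrpd3 measured 40, 52.4 and 51.7 and then 10.6, 7.31 and 7.63 CPM (log2 fold change -2.49, SE 0.22, adjusted p = 2.46e-11). Respiratory complexes encoded in the nucleus gave 28 rises and 19 falls among 69 (11 falls under total count scaling and 12 each without 24-30hpi replicate 1 and 18-24hpi replicate 3). Cox4i1, of cytochrome c oxidase, measured 38.5, 42.1 and 43.2 and then 142, 131 and 149 CPM (log2 fold change 1.77, SE 0.13, adjusted p = 2.78e-13), and Uqcrfs1, the Rieske protein of complex III, rose 4.1-fold. Mitochondrial ribosomal proteins gave 34 rises and 23 falls among 78 (15 falls under total count scaling). Mrps6 measured 12.8, 14.1 and 15.3 and then 94.7, 65.7 and 85.7 CPM, in contrast to Mrpl3. The 10 tested mitochondrially encoded transcripts gave 0 calls by edgeR, 0 by DESeq2, 0 at an unadjusted p under 0.05, and 2 rises under total count scaling. Nuclear pore genes gave 7 rises and 12 falls among 28 (10 and 7 under total count scaling, with a median of 0.18 in place of -0.23). Nup37 fell 4.08-fold and Nup85 3.43-fold.

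Enzymes of nucleotide synthesis gave 18 rises and 8 falls among 30 (60.0% and 26.7%, median 0.91). Umps, which completes pyrimidine synthesis, measured 13.5, 11.4 and 10.3 and then 43.7, 56.7 and 66.3 CPM (log2 fold change 2.24, SE 0.19, adjusted p = 6.61e-12), and Cad, which starts it, 0.947, 2.88 and 1.5 and then 15.5, 10.8 and 11.4 CPM (log2 fold change 2.81, SE 0.37, adjusted p = 1.65e-07). On the purine side Adsl measured 7.81, 12.6 and 9.38 and then 48, 49.6 and 49.3 CPM and Ppat, the first committed step, 100.4, 156 and 84.9 and then 247, 293 and 305 CPM. All 4 rose without overlap. Adss, which makes adenylosuccinate, fell from 535, 565 and 667 to 234, 253 and 216 CPM (log2 fold change -1.33, SE 0.13, adjusted p = 2.54e-10). The count of falls was 4 under total count scaling and 5 without 24-30hpi replicate 1 or any 18-24hpi replicate.

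Lysosomal proteins rose, with 17 rises and 2 falls among 29 (58.6% and 6.90%, median 0.94). Ctsz, a cathepsin, measured 4.85, 5.07 and 2.75 and then 36.1, 38.3 and 48.7 CPM (log2 fold change 3.27, SE 0.26, adjusted p = 2.21e-12), and Ctsb 84.6, 104 and 87.2 and then 354, 342 and 400.0 CPM (log2 fold change 1.99, SE 0.16, adjusted p = 4.8e-12). Lamp2, a lysosomal membrane protein, measured 70, 73.4 and 77.9 and then 225, 238 and 239 CPM (log2 fold change 1.66, SE 0.16, adjusted p = 1.57e-10). The windows were fully apart for all 3. The falls were Tpp1 (2.54-fold) and Ctsh (1.72-fold). Of the unfolded protein response, which protects the endoplasmic reticulum, 14 of 30 rose (22 under total count scaling) and 1, Derl3 (2.64-fold), fell. Hspa5 (BiP) measured 424, 442 and 497 and then 779, 776 and 856 CPM, and Selenos, of the retrotranslocation complex, 112, 116 and 73.9 and then 434, 497 and 489 CPM. Both lists were chosen after values had been seen, so their counts only describe.

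Cell cycle genes moved both ways (15 rises and 14 falls among 38), with mitotic cyclins B down and their kinase up. Ccnb1 measured 3205, 3408 and 3948 and then 1068, 1402 and 1260.1 CPM (log2 fold change -1.50, SE 0.13, adjusted p = 2.86e-11), and Ccnb2 240.3, 229 and 342 and then 51.8, 58.8 and 51.4 CPM (log2 fold change -2.32, SE 0.15, adjusted p = 3.49e-14). Cdk1, the kinase bound by cyclin B, measured 133, 124 and 107 and then 330.4, 360.3 and 383 CPM (log2 fold change 1.56, SE 0.15, adjusted p = 8.94e-11). None of the 3 overlapped between the windows. Ccne1, a G1/S cyclin, rose 2.33-fold and Cdc20, an activator of the anaphase-promoting complex, 2.87-fold, while Pttg1 (securin) fell 3.98-fold, Ttk, a spindle checkpoint kinase, 3.32-fold and Cdkn1b (p27) 4.66-fold. Ccna2 was called lower (log2 fold change -0.35), but its value was 0.0623 under total count scaling, and the call was lost without 24-30hpi replicate 1 or any 18-24hpi replicate. Replication genes gave 11 rises and 13 falls among 37 (20 and 7 under total count scaling; 8 falls without 24-30hpi replicate 1 or 18-24hpi replicate 1). Prim1, the primase subunit, rose 4.09-fold and Pcna, the sliding clamp, fell 1.93-fold.

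Chromatin modifiers gave 16 rises and 17 falls among 46 (20 and 11 under total count scaling, with a median of 0.33 in place of -0.08). Kdm5b, a histone H3 lysine 4 demethylase, measured 124, 124 and 94.6 and then 299, 359.7 and 382 CPM (log2 fold change 1.60, SE 0.18, adjusted p = 4.49e-09), and Prmt5, an arginine methyltransferase, rose 4.25-fold. The Polycomb subunits Eed and Ezh2 fell: Eed measured 264, 270.0 and 291 and then 83.2, 96.9 and 91.5 CPM (log2 fold change -1.60, SE 0.12, adjusted p = 1.02e-12) and Ezh2 368, 352 and 378 and then 160.1, 188 and 164 CPM (log2 fold change -1.10, SE 0.11, adjusted p = 9.04e-10). Kdm5b and both Polycomb genes separated fully. Kdm1b, the demethylase of oocyte imprints, fell 3.02-fold and Kdm6a 2.41-fold. Among p53 and its targets 7 of 25 rose and 4 fell, the count of rises was 4 without 24-30hpi replicate 3, and that of falls 2, 2, 1 and 2 without 24-30hpi replicate 1 and 18-24hpi replicates 1, 2 and 3. Trp53 itself measured 62.4, 78.6 and 92.2 and then 65.1, 69.5 and 61.3 CPM with overlap (adjusted p = 0.144), and Sesn1 rose from 13.4, 14.5 and 7.63 to 55.8, 34.2 and 65.9 CPM. Cdkn1a (p21) rose 1.45-fold.

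Other pathways split. Cholesterol synthesis gave 9 rises and 6 falls among 24, with Hmgcs1, an early enzyme of the pathway, down 2.07-fold. Glycolysis and citric acid cycle genes gave 16 rises and 12 falls among 39. The glycolytic Eno1 rose 3.69-fold and Pkm 2.27-fold, the mitochondrial Mdh2 4.16-fold, while the pyruvate dehydrogenase subunits Dld and Dlat fell 4.41-fold and 3.31-fold. Chaperonin and folding genes gave 8 and 8 among 25 (13 and 3 under total count scaling; 5 falls without 24-30hpi replicate 1 or 18-24hpi replicate 2 or 3), with Tcp1 up 2.3-fold and the prefoldin subunit Pfdn4 down 5.14-fold. Compaction and junction genes gave 6 and 4 among 24 (11 and 1 under total count scaling; 1, 2, 1 and 2 falls without 24-30hpi replicates 1 and 2 and 18-24hpi replicates 1 and 2), with F11r (JAM-A) up 3.89-fold, Cldn6 up 2.83-fold and Ctnna1 down 2.18-fold.

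Y-linked genes gave 5 rises and 0 falls among 8, in libraries that pool embryos whose sexes are not given. Uty measured 1.54, 2.54 and 1.63 and then 23.2, 9.99 and 24.2 CPM (log2 fold change 3.32, SE 0.56, adjusted p = 1.25e-05), and Zfy1 1.89, 2.54 and 1.25 and then 9.06, 15.2 and 9.66 CPM (log2 fold change 2.57, SE 0.63, adjusted p = 0.00143). Both separated fully, had 0 CPM in MII oocytes and had their highest mean at 24-30hpi. Eif2s3y measured 6.15, 10.7 and 1.63 and then 18.7, 14.1 and 22.6 CPM. The count of rises was 3 without 24-30hpi replicate 2, 24-30hpi replicate 3 or 18-24hpi replicate 3. Genes on the X chromosome made up 3.01% of the rises and 3.69% of the falls with a known position, against 3.73% of all genes.

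Reads were also counted for markers of cells that could be carried along. Among 17 cumulus cell markers measured, 8 were tested, 0 rose and 2 fell, Cyp19a1 (7.32-fold) and Serpine2 (2.39-fold), and their summed level ran from 465 to 596 CPM at 18-24hpi and from 201 to 232 CPM at 24-30hpi. Amh was the only 1 of the 17 with 0 reads in all 6 libraries, and Foxl2 had 0 and then 3 reads. Tnfaip6 had 271 and then 319 reads, with 0 reads in MII oocytes. Ptgs2 had 120 and then 44 reads (15 in MII oocytes) and Star 37 and then 34 (46 in MII oocytes). Of 13 sperm markers 4 were tested, 0 rose and 2 fell, Odf2 (1.33-fold) and Prm2 (5.33-fold). The fall of Prm2 was lost without 24-30hpi replicate 1 or 18-24hpi replicate 2, and that of Odf2 under total count scaling and without 24-30hpi replicate 1 or any 18-24hpi replicate. Ldhc, a testis lactate dehydrogenase, had 135 and then 334 reads (log2 fold change 0.93, adjusted p = 0.0699) and was called higher in 7 of the alternatives, DESeq2 and total count scaling among them. The summed level of the sperm markers ran from 199 to 214 and then from 143 to 179.9 CPM. Odf2 gave 4929 and then 4739 of their reads, with 5806 in MII oocytes. All 13 sperm markers had a read in at least 1 of the 6 libraries. Cyp19a1 and Serpine2 were at 143 and 983 CPM in MII oocytes. The part of these cells in the oocyte list's falls was not tested.

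The calls were followed into the libraries of other windows, in a contrast with 74.3% of genes called. Those libraries had shared the joint fit that set the filter, the scaling and the spread, so the contrasts are not independent. Their TMM factors were 0.849 to 0.899 at 12-18hpi and 1.26 to 1.33 at 30-36hpi. Of the 3412 risen genes, 3099 (90.8%) were also called higher at 30-36hpi against 12-18hpi and 34 were called lower, where 33.3% of all genes were called higher. Of the 3953 fallen genes, 3634 (91.9%) were called lower there and 52 higher, where 41.0% of all genes were called lower. Among the risen genes 1184 (34.7%) were below 1 CPM in MII oocytes, 1061 (31.1%) were at 1 to 10 CPM and 1167 (34.2%) above 10 CPM, against 31.8%, 25.5% and 42.8% of all genes tested, so the share below 1 CPM was near that of all genes. Among the fallen genes 3037 (76.8%) were above 10 CPM in the egg. Some genes above the egg threshold rose none the less: Gnl2, a large subunit assembly GTPase, stood at 259 CPM in MII oocytes, at 27.9, 19.6 and 21.4 CPM at 18-24hpi and at 75.3, 77.1 and 91.4 CPM at 24-30hpi.

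Most risen genes had their highest mean in another group. The call requires a higher level in one of the compared windows, so shares at 18-24hpi and 24-30hpi follow in part from the call itself. Of the 3412, 296 (8.68%) had their highest mean at 24-30hpi, where 6.20% of all genes tested had theirs. At 30-36hpi it was 818 (24.0%, against 9.01% of all genes) and at 48-54hpi 977 (28.6%, against 12.6%). At 70-76hpi it was 497 (14.6%, against 10.5%) and at 90-96hpi 674 (19.8%, near the 17.8% of all genes). Klf4, a risen gene, peaked at 24-30hpi at 38.1 ± 5.2 CPM (SD, n = 3). Obox3, which was not called, also peaked there, at 57.6 ± 2.47 CPM. The fallen genes had their highest mean most often at 12-18hpi (1072, 27.1%, against 11.4% of all genes) and in MII oocytes (938, 23.7%, against 13.8%), and 515 (13.0%, against 8.64%) had it at 18-24hpi. Cnot6l was one of those, at 651 ± 30.1 CPM. A further 319 fallen genes (8.07%, against 17.8% of all genes) had their highest mean at 90-96hpi, Psmb6 among them, with 59.6 ± 8.96 CPM at 24-30hpi and 623 ± 102.7 CPM at 90-96hpi.

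**Figure D5:**
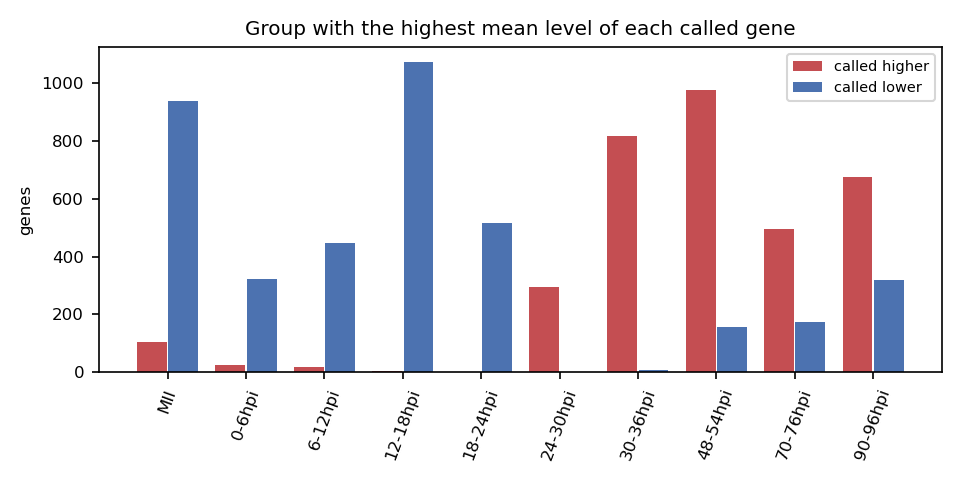
Number of genes (y axis) with their highest mean level in each group (x axis), for the 3412 genes called higher and the 3953 called lower at 24-30hpi against 18-24hpi. Genes called higher peak mainly from 30-36hpi on (977 at 48-54hpi), and genes called lower mainly in MII oocytes (938) and at 12-18hpi (1072).

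Risen genes were shorter in the genome than fallen ones. The median span from the RefSeq table (GRCm38.p6) was 17.0 kb for risen genes, 31.4 kb for fallen genes and 23.3 kb for all genes tested, with 92.6% to 95.5% of each class matched. Risen genes below 1 CPM in MII oocytes had a median span of 12.6 kb, and fallen genes above 10 CPM in the egg 35.2 kb. These are descriptions over genes that share libraries, and no test was made of them. The deposited gene length differed less, with medians of 2908 bases for the risen and 3076 bases for the fallen genes.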

How the data were processed

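Per the labels' protocols, RNA of 4SU-labelled oocytes and embryos was alkylated and sequenced after a modified Smart-seq2 protocol. The authors deposited read counts per gene, with gene lengths in bases. Tools listed in the submitters' processing notes include STAR 2.7.10a, Trim Galore 0.6.10 and SAMtools 1.12, with the builds mm10 and GRCm38 and no role given. The counting tool, strand and use of T-to-C conversions are not given in the sources used here. In 1 library the deposited column was treated as estimated counts and rounded, because 1 value of a damaged last record was a fraction. That record was left out.

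All 30 libraries of MII oocytes and the 9 windows were fitted together in edgeR 4.0.16 (R 4.3.3): low genes were dropped (filterByExpr, minimum count 10, minimum total 15), libraries scaled by TMM factors and genes tested with the robust quasi-likelihood F-test, 2-sided, with Benjamini-Hochberg adjustment over 16234 genes and a threshold of 0.05. Standard errors are the log2 fold change divided by the root of F. Fold values are the fitted log2 fold changes taken off the log scale. The second contrast (30-36hpi against 12-18hpi) came from the same fit. Sampling depth was 7975529 to 9392324 reads in the 6 libraries. Labels give no batch.

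Gene lists and members were chosen with earlier results of these data known, and 6 lists (mitochondrial ribosomal proteins, RNA polymerase III, Y-linked, lysosomal, unfolded protein response, F-box WD cluster) were added after values were seen. Genes were named by rule: the 12 largest log2 fold changes each way at a mean of at least 20 CPM, the 8 largest gains and losses in CPM, genes first seen at 24-30hpi, and up to 4 called members per list by adjusted p, with members that define a list. For the largest fold changes, gains and losses, only called genes with a named symbol and no overlap between the windows were eligible. Further genes were named after their values were seen. No set test was run. Promoter letters and gene spans came from RefSeq tables (GRCm38.p6), with motifs searched on both strands.

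Alternatives were DESeq2 1.42.0, its size factors, total count scaling, no filter on low counts, a replicate block, only the 6 libraries, no mitochondrial genes, thinning to one depth, a minimum log2 fold change of 1 and leaving out each library. The test was tested on simulated data with known changes. Tables and plots used Python 3.11.15 with pandas 2.3.3 and matplotlib 3.10.9.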

Additional observations from a re-analysis of the deposited data

How the results depend on the processing

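Under the alternatives run, no gene called in one direction at 24-30hpi against 18-24hpi was called in the other. The count of falls depended most on scaling: it was 2205 under total count scaling, and it ran from 2458 to 3640 over the fits without 1 library. Among those fits it was lowest without 24-30hpi replicate 1, and leaving out 18-24hpi replicate 1, 2 or 3 gave 2628, 2689 or 2560. The count of rises ran from 2942 to 3791 and that of all calls from 6068 to 6894 over the same fits. With a minimum log2 fold change of 1, 4903 genes were called, 2517 higher and 2386 lower. Total count scaling turned 5 named genes: Ccna2 (0.0623), Dppa2 (0.36), Mphosph10 (0.0504), Rps27l (0.0219) and Tex10 (0.0102). Of 247 called named genes, 224 kept direction and call under every alternative fit other than the minimum log2 fold change of 1, which by construction drops smaller changes. Same-numbered libraries of the windows did not deviate together (correlations of 0.004, -0.01 and -0.05), so the numbers were not read as pairs. A fit with the replicate block called 7242 genes in place of 7365. Fold changes are relative to the scaling of the libraries, and no absolute scale was set here. Leaving out 24-30hpi replicate 1 or any 18-24hpi replicate moved log2 fold changes upward by 0.185 to 0.234 (median over genes). Calls lost in those fits were lost beside this shift of all genes. Why single libraries moved the counts was not tested.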
